A study of Mus musculus with 4 samples.

Results

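The Peg3 and Usp29 domain is a cluster of imprinted genes on proximal chromosome 7, genes that are transcribed from only 1 parental chromosome. The genes listed for it were Zim1, Peg3, Usp29 and Zfp264, of which 3 had an entry in the gene table used, RefSeq's for GRCm38.p6, which is the mm10 sequence, among 49595 genes on the assembled chromosomes. The region described runs from 300 kb before Zim1 to 300 kb after Usp29, chr7:6374444-7267220 in mm10, a window of 893 kb. The domain was chosen from the deposited values themselves, for its islands in the knockout list, so the contrast between the genotypes here is a description and not a test. The window held 16 of the 25424 islands of the knockout list and 0 of the 12371 islands of the wild-type list.

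The study measured trimethylation of histone H3 at lysine 9 (H3K9me3), which marks silent chromatin, by chromatin immunoprecipitation and sequencing (ChIP-seq) in mouse CD8+ T cells. Cells of the C57BL/6 background, either wild-type (WT) or Suv39h1-KO (KO), had been cultured for 3 days with antibodies against CD3 and CD28 and with IL-2. Each genotype had 1 H3K9me3 library and 1 input library, and the inputs are not analysed here. The sources used here do not give how the knockout was made or how many mice gave cells. With 1 library per genotype there was no replicate check, and all values describe these libraries. Islands, the broad enriched stretches called separately in each library, held 5547695 reads in the WT list and 10020253 in the KO list. Whole-library depth is not known here, so read counts were not compared between the genotypes. None of 7 T cell marker genes (Cd3e, Cd8a, Lck and others) had an island in either list, which does not check the purity of the cells. The shares for protein-coding genes at large were low too, 14% for WT islands and 13.7% for KO islands. A count of 0 among 7 genes is therefore not set apart from the background. For markers of other cells, WT islands reached 1 of 4 B cell, 1 of 4 myeloid and 2 of 2 natural killer cell genes. KO islands reached 0, 1 and 1 of them.

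SUV39H1 is one of the enzymes that place H3K9me3, and is best known for its work at the repeats around centromeres. Imprinted domains are controlled by short regions in which the DNA of only 1 parental chromosome is methylated, and at such regions H3K9me3 usually marks the methylated copy. In the Peg3 domain this region lies at the start shared by Peg3 and Usp29, is methylated on the maternal chromosome, and both genes are transcribed from the paternal one. Peg3 encodes a large zinc finger protein with roles in growth and maternal behaviour, Usp29 a ubiquitin-specific protease, and Zim1 a zinc finger protein transcribed from the maternal chromosome. The libraries do not separate the parental chromosomes.

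Peg3 and Usp29 are read in opposite directions from starts 164 bp apart, at positions 6730419 and 6730583. Promoter sequences were taken from RefSeq (GRCm38.p6) as the 250 bases before and 50 bases after a gene's start, and the windows of Peg3 and Usp29 shared 263 bases. The Peg3 window (chr7:6730370-6730669, minus strand) is shown because it lay wholly under a KO island. That of Zim1 (chr7:6696383-6696682, minus strand) had more CpG dinucleotides and was under none, and that of the olfactory receptor gene Olfr1350 (chr7:6569743-6570042, plus strand) was CpG-poor and under a KO island. Capitals mark CpG dinucleotides, the sites of DNA methylation.
Peg3: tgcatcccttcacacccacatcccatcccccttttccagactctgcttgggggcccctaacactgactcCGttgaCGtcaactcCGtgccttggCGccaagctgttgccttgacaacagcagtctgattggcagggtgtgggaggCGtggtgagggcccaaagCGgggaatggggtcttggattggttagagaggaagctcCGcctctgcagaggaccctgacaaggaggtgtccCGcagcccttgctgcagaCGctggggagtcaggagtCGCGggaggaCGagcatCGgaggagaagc
Zim1: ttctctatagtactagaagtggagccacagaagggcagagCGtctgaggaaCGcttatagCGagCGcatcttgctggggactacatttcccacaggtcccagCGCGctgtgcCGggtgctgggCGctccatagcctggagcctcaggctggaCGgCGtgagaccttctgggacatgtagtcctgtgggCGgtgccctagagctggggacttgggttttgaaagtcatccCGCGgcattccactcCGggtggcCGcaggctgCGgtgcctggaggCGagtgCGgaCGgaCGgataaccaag
Olfr1350: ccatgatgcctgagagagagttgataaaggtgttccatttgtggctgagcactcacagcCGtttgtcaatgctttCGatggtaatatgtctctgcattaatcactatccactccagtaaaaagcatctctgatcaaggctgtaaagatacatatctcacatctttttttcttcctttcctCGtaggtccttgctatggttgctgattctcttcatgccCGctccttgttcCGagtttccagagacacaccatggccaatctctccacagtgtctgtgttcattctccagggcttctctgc

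The Peg3 window held 13 CpG dinucleotides, the Usp29 window 17, the Zim1 window 20 and the Olfr1350 window 5, against a median of 7 over 27025 genes with a promoter entry (the first start listed for each gene). The cAMP response element TGACGTCA, a palindrome, occurred once in the bases shared by Peg3 and Usp29, where the print shows it as tgaCGtca. It was present in 1.88% of all promoter windows. On either strand, the YY1 core CCATNTT (16.3% of windows) had no match in the windows of Peg3, Usp29 or Zim1. The ZFP57 core TGCCGC (11.6%) had 1 match in Zim1 and none in Peg3 or Usp29. These are matches of letters in 300 bases and show no binding. Sequence outside these windows, including the rest of the control region, was not searched.

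Across the window, KO islands covered 161 kb, or 18.0% of the sequence, and WT islands covered 0 kb. Over the span of the members, from the start of Zim1 to the end of Usp29, KO cover was 27.9% (81.7 kb in 8 islands). It was 19% in the 300 kb before them (57 kb in 6 islands) and 7.43% in the 300 kb after them (22.3 kb in 3 islands, 1 of which also reaches into Usp29). The list of islands holds only stretches past the threshold of the caller, and its lowest read densities were 31.7 reads per kb in WT and 29.6 in KO. The absence of a WT island therefore means that no stretch was called, and does not show that the mark was absent.

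**Figure D1:**
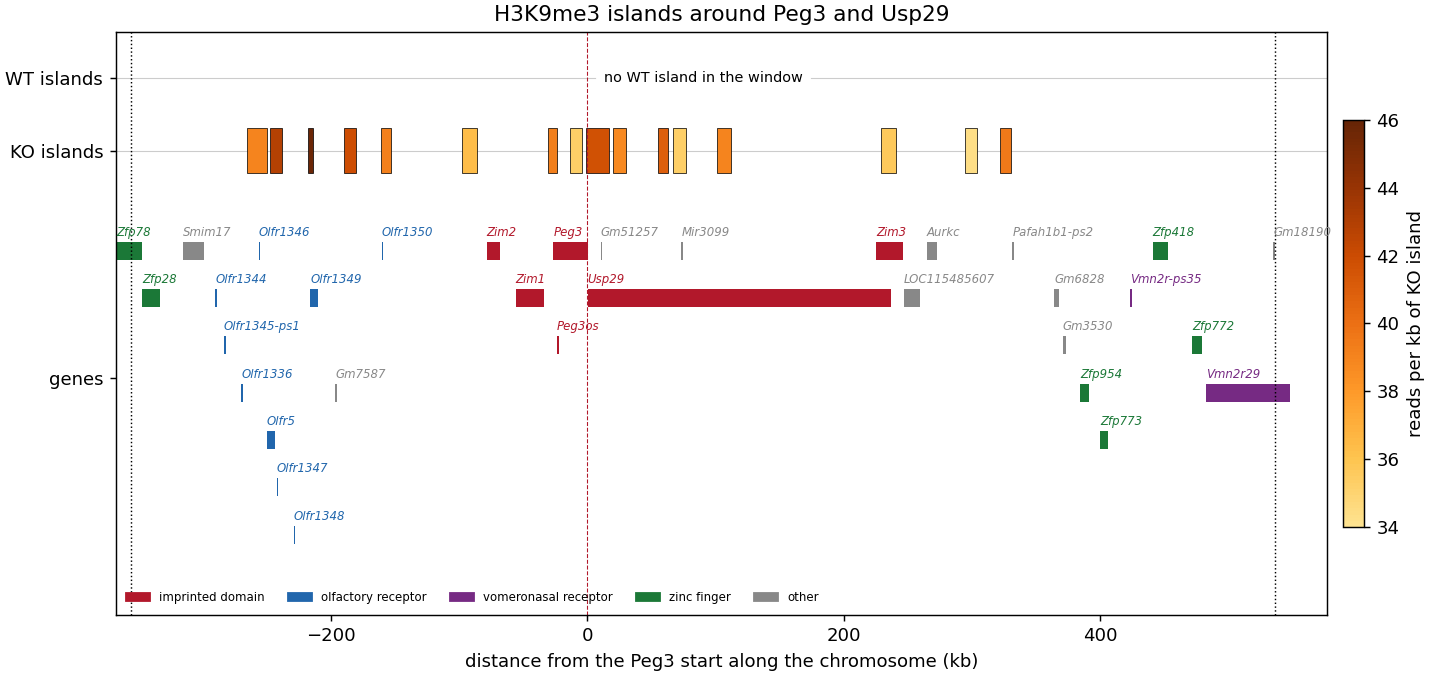
Islands and annotated genes by distance from the Peg3 start in kb, negative values lying towards Zim1. Boxes in the upper rows are islands coloured by reads per kb, bars below are genes, dotted lines are the ends of the window and the dashed line is the Peg3 start. Most of the 16 KO islands lie between the olfactory receptor genes and the first part of Usp29, and the WT row is empty.

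The longest KO island of the window lay over the Peg3 and Usp29 starts. It spanned chr7:6729501-6747500, an 18 kb stretch with 751 reads (41.7 reads per kb). Counted from the starts given above, which lie just inside the gene spans given below, it took in 0.919 kb of Peg3 and 16.9 kb of Usp29. By length it stood at percentile 94.4 of all KO islands, and by reads per kb at percentile 67.7. It also held the pseudogene Gm51257 whole. No WT island lay within 796.5 kb of it.

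Peg3 had 17.6 kb under KO islands and 0 kb under WT islands. These values are for the gene (chr7:6703892-6730462) with 2 kb on each side, of which the KO islands covered 57.5%. Besides the island at the start there was one at chr7:6716501-6726500 inside the gene (353 reads, 35.3 per kb), and one at chr7:6699501-6706500 across its other end (275 reads, 39.3 per kb). The mark called in KO thus lay at both ends and in the body of Peg3. Peg3os, an antisense RNA gene inside Peg3, had no KO island over its own bases, the nearest ending 0.259 kb away. Counted with 2 kb on each side like the other genes, Peg3os had 1.74 kb (35.8%) under KO islands and 0 kb under WT islands.

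Usp29 had 66.7 kb under 6 KO islands and 0 kb under WT islands. Its gene is long (chr7:6730559-6967220, 237 kb), so the share covered was lower, 27.7%. The cover was uneven along the gene. With the gene cut into 4 equal parts in the direction of transcription, KO islands covered 53.5% of the first part, 41.0% of the second, 0% of the third and 13% of the fourth. After the island at the start came islands at chr7:6750001-6760500 (38.8 reads per kb), chr7:6785501-6793000 (40.9), chr7:6797501-6807500 (35.3) and chr7:6831501-6842500 (39.0). A stretch of 117 kb without an island followed, the longest between islands of the window. The sixth island, at chr7:6959501-6971500 (428 reads, 35.7 per kb), covered the end of Usp29.

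The microRNA gene Mir3099 lies inside Usp29 (chr7:6803587-6803670), and all 84 bases of its hairpin were under the KO island at chr7:6797501-6807500. Its mature sequences, from RefSeq, are printed to identify this transcript, with the seed (bases 2 to 8) in capitals.
mmu-miR-3099-5p: cCAGCUUCcuuccagcccuug
mmu-miR-3099-3p: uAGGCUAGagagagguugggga

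Zim1 (chr7:6674444-6696540) lay outside the islands of both lists, with 0 kb covered in either. The nearest KO island lay 2.96 kb from the gene and 2.82 kb from its promoter window, so counting 10 kb on each side of the gene gave Zim1 a KO cover of 7 kb. Zim2, here a long noncoding RNA gene next to Zim1, also had 0 kb in both lists, with a KO island 7.75 kb away. Zim3, a long noncoding RNA gene at the far end of Usp29, had 12 kb under the KO island it shares with Usp29 and 0 kb in WT.

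No KO island of the window was overlapped by a WT island (0 of 16), while 24.9% of all KO islands were. All 16 lie in the same gap of 4.81 Mb between WT islands, so they are not separate cases. The KO islands of the window lay 532 to 1119.5 kb from the nearest WT island. Over the KO list, 2.55% of islands lay 532 kb or more from one. Since the domain was chosen on this contrast, nothing is read from these shares.

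The islands of the window were near the KO list at large in length, and most were less dense than its median. They were 4 to 18 kb long, with a median of 9.75 kb against 9 kb over all KO islands, and 10 of 16 were longer than that list median. They held 34.3 to 45.8 reads per kb, with a median of 39.1 against 40.1, and 5 of 16 were above the list median, where the share is 50% by construction. The 5 included the island over the Peg3 and Usp29 starts and one inside Usp29, and the other 3 lay among or beside the olfactory receptor genes. The shortest was the densest, 4 kb at chr7:6512501-6516500 in Olfr1349, with 183 reads and 45.8 reads per kb. The least dense was at chr7:7025001-7034500, in no annotated gene, with 326 reads and 34.3 per kb (percentile 1.31 of KO islands). Also low were those inside Peg3 (chr7:6716501-6726500) and over Mir3099, both at percentile 3.57. The islands at the end of Usp29 and at chr7:6632501-6644000 stood at percentiles 5.01 and 8.47.

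**Figure D2:**
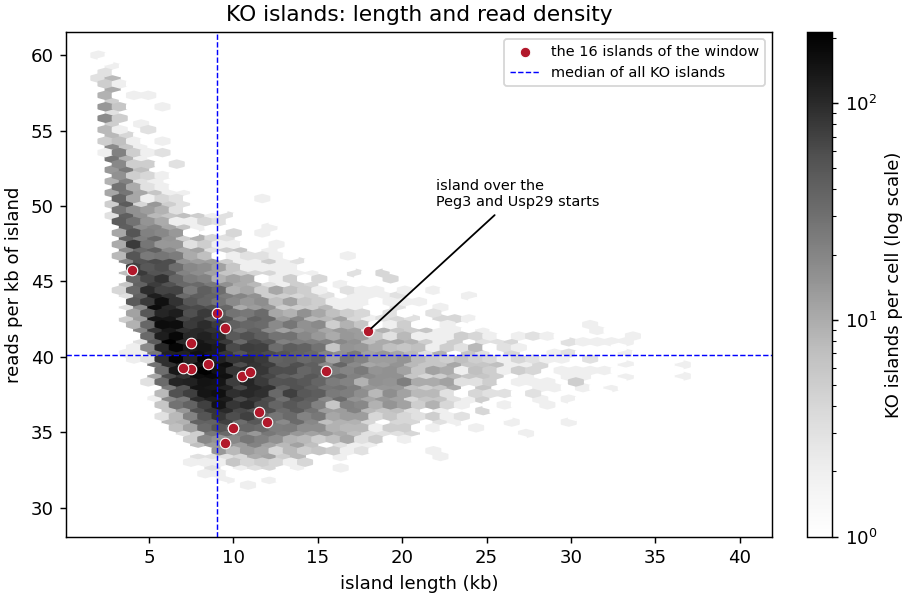
Length in kb against reads per kb for KO islands, with the 16 islands of the window in red and the medians of the KO list as dashed lines; grey shading counts islands, and 155 islands over 40 kb or over 60 reads per kb are not drawn. The red points fall within the grey cloud, with the island over the Peg3 and Usp29 starts, 18 kb at 41.7 reads per kb, at its long end.

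The other genes of the window are given by family. Of 8 protein-coding olfactory receptor genes, which encode odorant receptors of nasal neurons, 5 had a KO island and 0 a WT island. Olfr1346 and Olfr1347 were covered whole with their flanks (4.94 and 4.96 kb), Olfr5 to 76.8%, Olfr1350 to 69.4% and Olfr1349 to 39.4%. Olfr1344, Olfr1336 and Olfr1348 had none. All 6 genes named as zinc finger genes in the window (Zfp78, Zfp28, Zfp954, Zfp773, Zfp418 and Zfp772) had no island in either list. Zfp78 and Zfp28, like Olfr1344 and Olfr1336, lie before the first KO island of the window. The other Zfp genes lie past the last one, so family and position cannot be told apart. These 6 genes are few beside a KO share of 13.7% over all protein-coding genes. Smim17, the germ cell kinase gene Aurkc and the vomeronasal receptor gene Vmn2r29 had none either. Of the pseudogenes, Gm51257 had 4.58 kb and Pafah1b1-ps2 1.14 kb in KO, both with 0 kb in WT. In all, 7 of 20 protein-coding genes of the window had a KO island and 0 a WT island, against 13.7% and 14% of 21774 protein-coding genes. Those with an island in KO and none in WT made up 6.16% of all protein-coding genes, and no more is read from the 7, given how the domain was chosen.

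Sequence at the gene starts was not used in the choice of the domain, but the KO islands over them were. Of the KO-covered promoters of the window, those of Peg3 and Usp29 had 13 and 17 CpG dinucleotides, and the 5 of olfactory receptor genes had 0 to 6. Over the genome, 4.03% of promoter windows lay under a KO island, and these had a median of 2 CpG dinucleotides. Of the 10402 promoters with at least as many CpG dinucleotides as Peg3, 57 (0.548%) lay under a KO island and 112 (1.08%) under a WT island. Peg3 and Usp29 were 2 of these 57, but Peg3 meets the cutoff by construction and the domain was chosen for its KO islands. Their windows share 263 bases under 1 island, so they are not 2 separate cases. Nothing is read from their place among the 57. CpG-rich promoters under an island were thus few in both lists. The CpG-rich promoters of Zim1 and Zfp28, each with 20 CpG dinucleotides, were outside the islands.

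**Figure D3:**
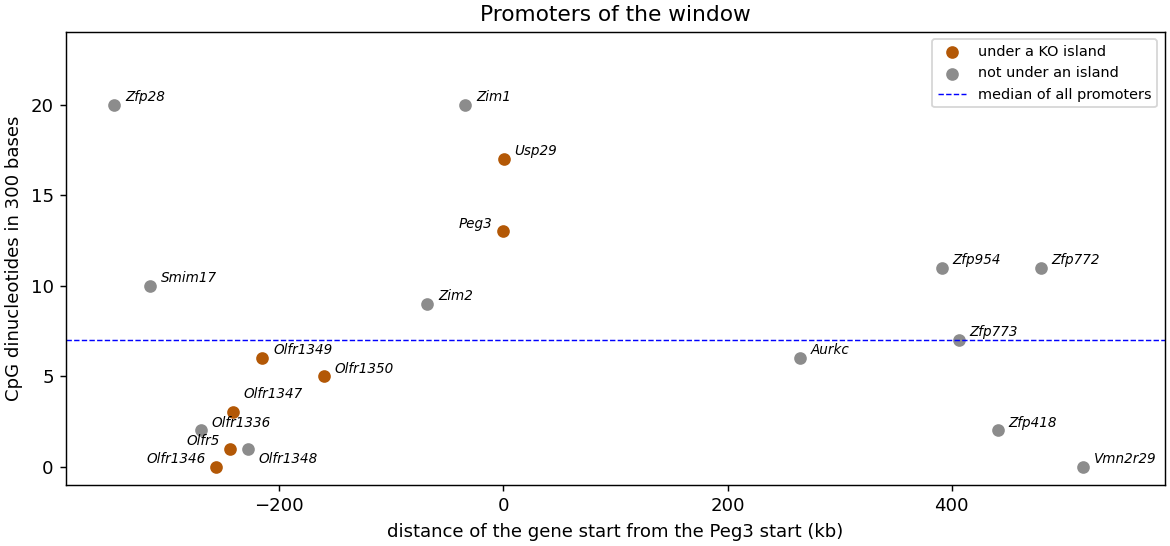
CpG dinucleotides in the 300-base promoter window against distance of the gene start from the Peg3 start in kb, for each gene of the window with an entry (first start listed). Orange points lie under a KO island, grey points under none, and the dashed line is the median of all promoters, 7. Peg3 (13) and Usp29 (17) are the orange points above that line.

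To set the window beside the rest of the genome, the autosomes were cut into 2683 tiles of the same length. The tiles had a median cover of 4.14% in WT and 7.29% in KO. No WT cover was found in 10.1% of tiles, and KO cover of at least 18.0% in 21.5%. Both held in 11 tiles, or 0.41%. The window has 20 protein-coding genes, and 263 tiles had that many or more. Among these gene-rich tiles the median cover was 2.80% in WT and 1.12% in KO, 16.7% had no WT cover, 9.51% had KO cover of at least 18.0%, and 0 (0%) had both. These shares describe where the window lies and, as the window was chosen for its contrast, carry no test.

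**Figure D4:**
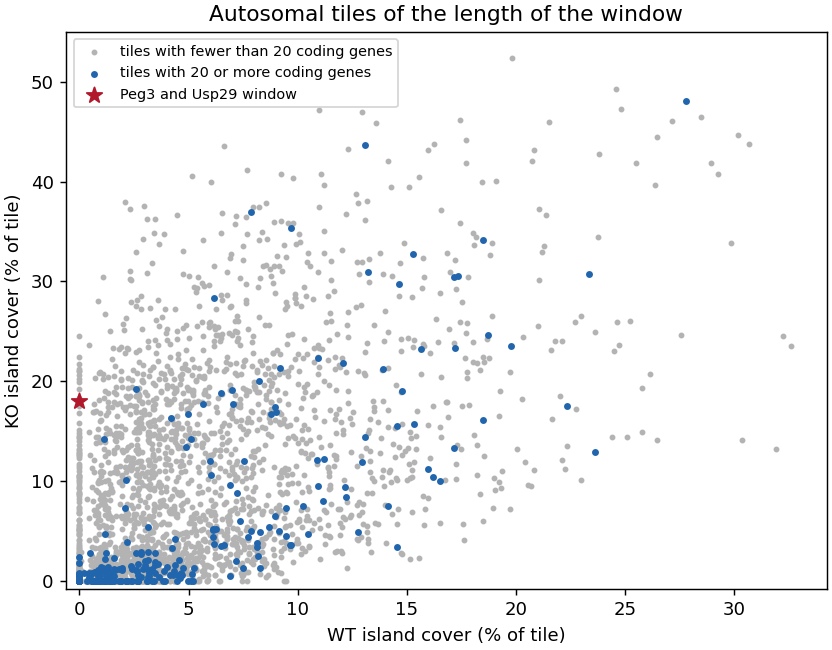
WT against KO island cover, in percent of the tile, for 2683 autosomal tiles as long as the window; blue points are the 263 tiles with at least 20 protein-coding genes, and the star is the window. The star sits on the left edge at 0% in WT and 18.0% in KO, with no blue point at or above it on that edge.

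The empty WT stretch was wider than the domain. The WT islands on each side were at chr7:5923001-5933000 (372 reads, 37.2 per kb) and chr7:10744501-10755000 (435 reads, 41.4 per kb), 4.81 Mb apart, and both were overlapped by a KO island. Of 12349 gaps between neighbouring WT islands on the autosomes, 5 were as long or longer, this one included, and the median gap was 70.5 kb. The KO islands just outside the window were at chr7:6096501-6106000, 268 kb before it (325 reads, 34.2 per kb), and at chr7:10148501-10156500, 2881 kb after it (329 reads, 41.1 per kb). Repeats and the share of the sequence to which reads can be assigned were not analysed here, and their part in the gaps was not tested.

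**Figure D5:**
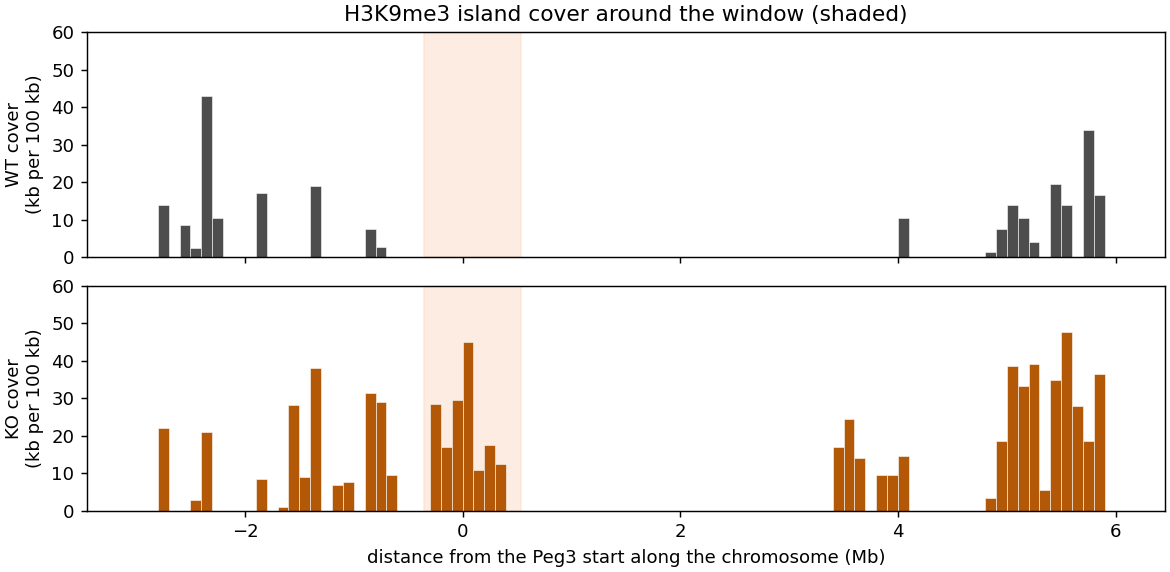
Island cover in kb per 100 kb of sequence, WT above and KO below, from 3 Mb before to 6 Mb after the Peg3 start, with the window shaded. WT bars stop before the window and resume after the 4.81 Mb gap, while KO bars stand in most of the shaded part, are absent from both its edges, and resume at 3.4 Mb.

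Other imprinted genes differed in which list covered them. Of 70 matched genes on a list of known imprinted genes outside the domain, islands reached 11 (15.7%) in the WT list and 17 (24.3%) in the KO list. Of these, 8 had one in both lists, 9 in KO alone and 3 in WT alone. The order turned when the KO list was reduced to the WT number of islands by total reads, with 9 genes covered in KO against 11 in WT, and 3 in KO alone against 5 in WT alone. That setting drops only KO islands. Without gene flanks, 12 genes were covered in KO and 11 in WT, 6 in KO alone and 5 in WT alone. With flanks, some genes counted on little cover, as Mirg with 0.02 kb and Sgce with 0.704 kb in KO. The protein-coding genes among the 70 numbered 62, with 8 (12.9%) covered in WT and 13 (21.0%) in KO. Beside them stand the 14% and 13.7% of all protein-coding genes. Those covered in KO alone were 8 (12.9%), beside 6.16% of all protein-coding genes, which were not matched to them in length. The gene list was chosen with earlier results of these data known, so no excess is read from these shares. Genes of 1 domain share islands, as Snrpn and Snurf do, so these counts are not independent. Kcnq1ot1, the noncoding RNA that silences its neighbours in the Kcnq1 domain, was covered over 42.4 kb by WT islands and 41.4 kb by KO islands, and Kcnq1, which overlaps it, over 52.5 and 45 kb. Zdbf2 had a WT cover of 30 kb and a KO cover of 29.5 kb, and the growth regulator gene Grb10 21 and 13.5 kb. Snrpn, a splicing protein gene of another imprinted domain of chromosome 7, had 15 and 117 kb, and the proteoglycan gene Dcn 0 and 35.7 kb. Peg3 and Usp29 had islands in KO alone, whereas Kcnq1, Kcnq1ot1, Zdbf2 and Grb10 had islands in both lists. Nothing is read from this difference. The domain was chosen on its contrast, and the genes set against it were named for the longest WT cover.

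Of 54 imprinted genes outside the domain with a promoter entry (any start listed), 2 had a promoter under a WT island and 2 under a KO island. Over all 27025 genes, counted the same way, the shares were 3.39% in WT and 4.22% in KO, so these counts are near the background. Snrpn and Snurf share a start at chr7:60005150-60005449 (7 CpG dinucleotides) that lay under a KO island and no WT island. Another start of Snrpn, at chr7:60140176-60140475, lay under islands of both lists, so that Snurf was the only 1 of the 54 genes with a promoter under a KO island and none under a WT island. At Grb10 1 start (9 CpG dinucleotides) lay under a WT island and no KO island.

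The protein-coding genes most like the members in cover were sought among genes with a region 0.67 to 1.5 times as long, by the summed difference in percent covered in WT and KO, a likeness over only 2 libraries. Nearest to Peg3 were Vmn2r72 (57.6% in KO), Aadat (56.3%) and Sypl (59.0%), all with 0% in WT. Nearest to Usp29 were Trpc4 (27.9%), Rimbp2 (25.9%) and Tmem132b (24.8%), again with 0% in WT. Genes of like length with no WT island and at least the KO share of the member were 17 of 5420 for Peg3 (0.314%) and 4 of 939 for Usp29 (0.426%). As the domain was chosen on this contrast, low shares follow from the choice and carry no test.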

How the data were processed

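The deposited lists hold chromosome, start, end and a whole-number count per island, read here as ChIP reads. Whole numbers alone do not show whether the counts were scaled to depth or input. Per the submitters' processing notes, Bowtie2, SICER 1.1 and the build mm10 were used; the sources used here give neither the caller's settings nor the use of the input. Coordinates lie on a 500 bp grid and were converted to positions counted from 1. Groups came from the labelled titles.

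Genes came from RefSeq (GRCm38.p6), leaving out 348 on scaffolds; 3 of 4 members and 75 of 76 listed imprinted genes matched. A gene counted as covered when at least 1 bp of the gene with 2 kb on each side was in an island; overlap of islands also needed 1 bp. Named genes are the members, genes of the window, up to 4 imprinted genes per genotype with the longest cover, and 3 genes of like cover per member. Snurf, Mirg and Sgce were named after their values were seen. Members and lists were chosen with earlier results of these data known. Python 3.11.15, pandas 2.3.3 and SciPy 1.17.1 were used; cover and overlap code was tested on simulated islands. No test between genotypes was made. Alternatives were denser islands, a KO list cut to the WT number, longer or joined islands, and other flanks and overlaps.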

Additional observations from a re-analysis of the deposited data

How the results depend on the processing

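The settings changed the number of KO islands but gave no WT island in the window. Only a wider window could have added one, and the widest tried, with 500 kb flanks, ended short of the nearest WT island. That island lies 441 kb before the window used here. WT cover was therefore bound to stay at 0 kb. KO cover of the window, Peg3 and Usp29 exceeded it in each setting, which is no check of the contrast. With only islands above the median reads per kb of their list, and likewise with the KO list reduced to 12371 islands by reads per kb, 5 KO islands (48 kb, also the KO minus WT difference) were left, the one over the Peg3 and Usp29 starts among them. Peg3 then had 2.96 kb and Usp29 25.5 kb. With the KO list reduced by total reads, 10 KO islands were left, again with that island, and the order of the genotypes turned for imprinted genes outside the domain, of which 9 had an island in KO and 11 in WT, 3 in KO alone and 5 in WT alone. Dropping only KO islands can only lower KO values. Without gene flanks, 12 imprinted genes outside the domain had an island in KO and 11 in WT, 6 in KO alone and 5 in WT alone. With 10 kb on each side Zim1 had 7 kb and Peg3 28.0 kb in KO. All other values stayed within 1.5 times. No paired analysis was possible because there is only 1 H3K9me3 library of each genotype. Whole-library depth and input signal over the window were not analysed here, which limits what an uncalled stretch shows.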

Other observations

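Beyond the window neither list held an island between chr7:7061001 and chr7:10148500, a stretch of 3.09 Mb that begins where the last KO island of the window ends. It holds 29 protein-coding genes, of which 23 are vomeronasal receptor genes and 4 are named as zinc finger genes. Of 25390 gaps between neighbouring KO islands on the autosomes, 17 were as long or longer, this one included, and the median gap was 24.5 kb. This stretch was noticed after the values were seen, and its cause was not tested.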
